A study of Mus musculus with 6 samples.

Results

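The mouse genes whose symbol is Usp followed by a number, most of which encode ubiquitin-specific proteases, were followed in bone marrow-derived macrophages (BMDMs) given bacterial lipopolysaccharide (LPS). Every protein-coding row of the deposited table with such a symbol was taken, and Usp18 was left out, which gave 47 genes of the 24752 in the table (15910 of them protein-coding). Apart from leaving out Usp18, the choice went by symbol, with no threshold on a measured level. It was made with earlier results of these data known, and Usp18 itself rose strongly after LPS, with levels given below. Usp6nl is caught by its symbol but encodes a TBC-domain activator of Rab GTPases, and Usp39, a splicing factor of this protein family, lacks protease activity.

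Ubiquitin is a small protein that is joined to lysines of other proteins, singly or in chains, and that marks them for the proteasome or changes their partners and location. Ubiquitin-specific proteases are cysteine proteases that take ubiquitin off again, and they form the largest family of deubiquitinases. In macrophages, ubiquitin chains built on TRAF proteins and kinase complexes below Toll-like receptor 4 carry the LPS signal to NF-kB and to the interferon genes, and deubiquitinases trim those chains.

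RNA was sequenced in 6 libraries, 2 (B and C) in each of 3 groups. The first group, called Glul_LPS here, is labelled as overexpressing Glul, the gene of glutamine synthetase, and as LPS-treated. The second is labelled as LPS-treated (LPS) and the third as control. All cells were grown for 7 days with 10 ng/ml M-CSF, the macrophage growth factor, from marrow of mice aged 8 to 10 weeks. Per the protocol, lentiviral vectors, either the Glul vector or a control, were given for 36 h, and LPS followed at 100 ng/ml for 3 h. The labels of the LPS and control libraries do not say which vector those cells carried, and no group had the Glul vector without LPS. Neither the strain nor the origin of libraries B and C in separate animals or cultures is given. A p-value here therefore speaks only of the spread among the libraries sequenced, part or all of which may be technical.

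Library totals, recovered from the table, ran between 15649764 and 18691669 fragments. Levels are in FPKM, fragments scaled by exon length and by library total, so that genes of different length can be compared. The targeted gene, Glul, had 37.2 and 37.7 FPKM in the libraries labelled Glul_LPS, 30.6 and 33.4 FPKM in the LPS libraries, and 140 FPKM in each control library. The Glul difference of 0.22 (log2(FPKM + 1)) between the libraries labelled Glul_LPS and the LPS libraries did not pass the test (limma, adjusted p = 0.122), so a direction drawn between these groups rests on the labels alone. All 8 macrophage markers were found, with summed levels of 19906 and 21158 FPKM in Glul_LPS, 17387 and 18706 FPKM in LPS, and 22658 and 21903 FPKM in control libraries. Lyz2 (13175 to 18480 FPKM) made up most of each sum. In LPS libraries Lyz2, Csf1r, Adgre1, Cd68 and Itgam were lower than in control libraries, and Cd14, Fcgr1 and Mertk were higher. The 7 neutrophil markers summed to 66.0 and 70.5 FPKM in Glul_LPS, 60.8 and 65.3 FPKM in LPS, and 52.8 and 54.2 FPKM in control libraries. Most of that was Csf3r (44.6 to 63.7 FPKM), S100a8 had 4.86 to 7.37 FPKM and S100a9 0.734 to 3.76 FPKM, and Ly6g, Mpo, Elane and Cxcr2 were at or near 0. The lymphocyte markers Cd3e, Cd3d, Cd79a and Ms4a1 were at or near 0. The part of other cell types in the changes below was not tested. In bulk RNA, fewer cells of a type and less RNA per cell cannot be told apart.

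Usp25 and Usp12 were the most abundant members in LPS-treated cells, and Usp8 in control cells. Usp25 had 72.7 and 77.8 FPKM in Glul_LPS, 85.2 and 69.5 FPKM in LPS, and 31.5 and 32.1 FPKM in control libraries. Usp12 had 79.2 and 88.7 FPKM in Glul_LPS, 84.8 and 79.2 FPKM in LPS, and 15.4 and 15.6 FPKM in control libraries. In order of mean level among the 47 members, Usp12 stood 1st in the Glul_LPS and the LPS libraries and 7th in control libraries. Usp8, which acts on endosomes, and Usp7, which acts on Mdm2 and p53, followed with means over all libraries of 32.5 and 20.0 FPKM. Usp5, which takes free ubiquitin chains apart, was next with 19.9 FPKM. At the other end, 8 members stayed below 1 FPKM in all libraries and did not reach the level needed for testing, at least 1 FPKM in at least 2 libraries. The other 39 were tested, of which 6 would not have reached that level without the control libraries (Usp11, Usp20, Usp36, Usp37, Usp46 and Usp54) and 1, Usp27x, reached it through LPS-treated libraries alone. The direction of such a member is partly set by that choice.

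**Figure D1:**
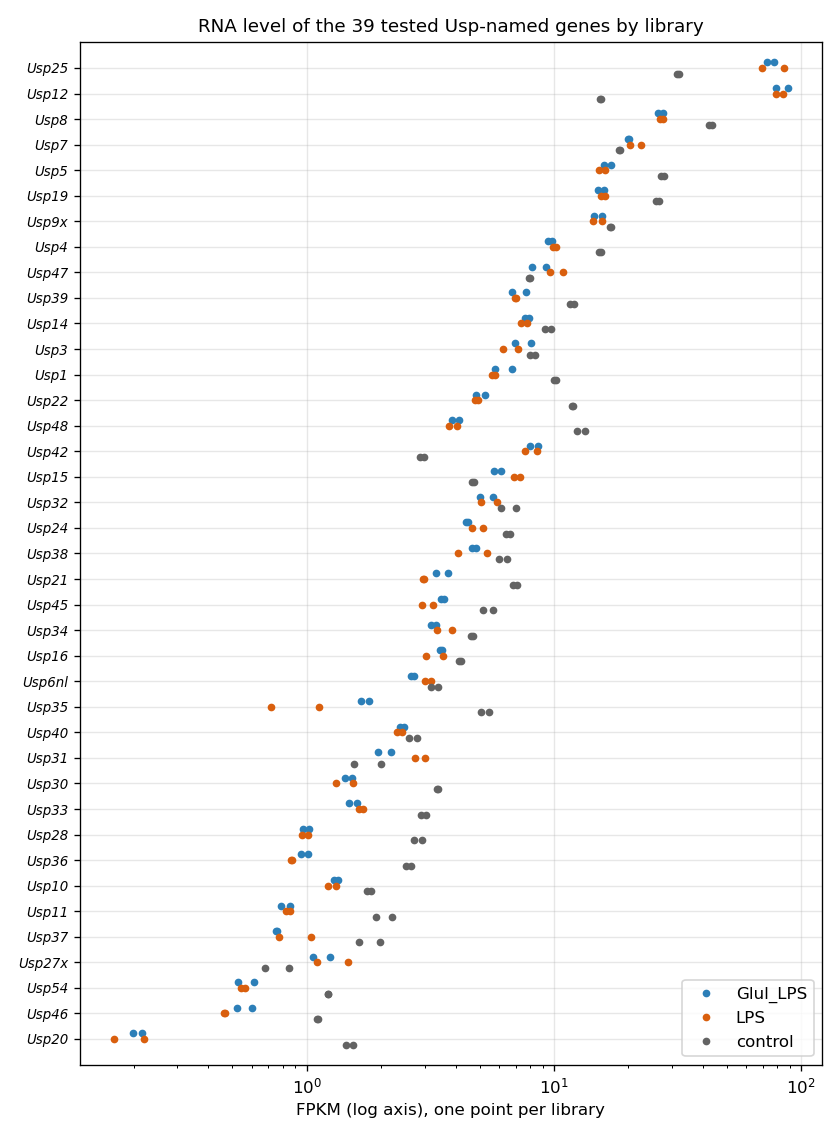
FPKM (log axis) of the 39 tested members, 1 point per library, in the order of their mean level, with Glul_LPS in blue, LPS in orange and control in grey. Usp12 lies at 79.2 to 88.7 FPKM in the 4 LPS-treated libraries and at 15.4 and 15.6 FPKM in the control libraries, while most members lie lower after LPS.

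For the response to LPS, the LPS libraries were set against the control libraries. By change in log2(FPKM + 1), a small group of members rose, led by Usp12, Usp25 and Usp42. Most of the family fell, led on that scale by Usp35, Usp48 and Usp22. On the deposited scale 8 of the 39 tested members rose (17.1% of all genes tested did), 27 fell (68% of all genes tested did), and 4 (Usp9x, Usp32, Usp6nl and Usp40) did not pass the test (limma on log2(FPKM + 1), adjusted p under 0.05, 85.2% of all genes tested called in either direction). The LPS and control libraries did not overlap for 39 of 39 members, against 92.5% of all genes tested. The median change over the members was -0.52 and over all genes tested -0.50, on the log2(FPKM + 1) scale. The share of the members that was called was therefore near that of all genes.

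Because most genes were lower on the deposited scale after LPS, the changes were also taken relative to the median gene of every library. On this centred scale 17 members rose (34.6% of all genes tested), 10 fell (32.2%) and 12 did not pass, with a median of 0.00 over the members and 0.02 over all genes. The 8 members that rose as deposited rose on both scales, and 10 fell on both scales (Usp5, Usp19, Usp20, Usp21, Usp22, Usp28, Usp30, Usp35, Usp36 and Usp48). Centring moved the change of every gene up by the same amount, so a member that rose as deposited could not turn. How many of all genes were called alike on both scales was not counted. Usp20 and Usp36 reached the level for testing only with the control libraries. The direction turned for 5 members (Usp3, Usp10, Usp14, Usp16 and Usp34), which were called lower as deposited and higher after centring. Another 12 were lower as deposited and not called after centring, and the 4 that were not called as deposited were higher after centring. Which scale matches the RNA per cell was not tested.

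**Figure D2:**
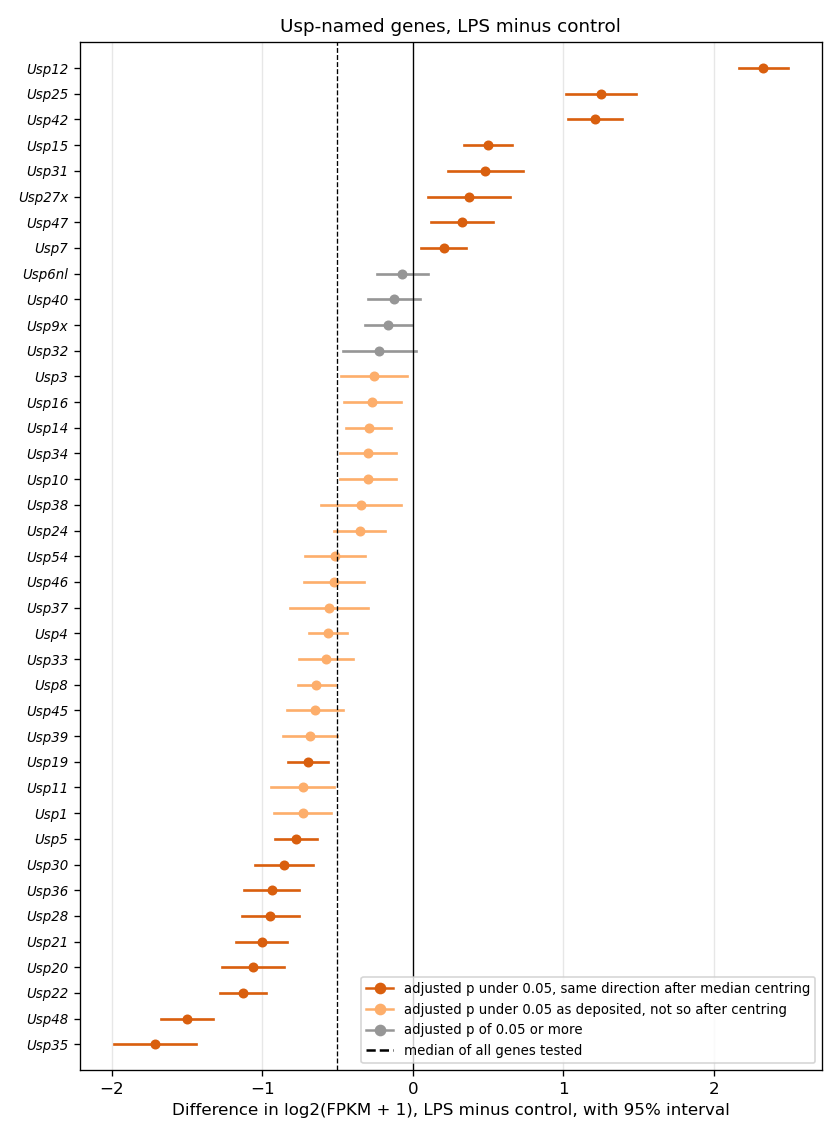
Difference in log2(FPKM + 1), LPS minus control, of the 39 tested members with 95% intervals from limma. Dark orange points passed an adjusted p of 0.05 in the same direction on both scales, light orange points as deposited and not in the same direction after centring, and grey points did not pass as deposited, with the dashed line at the median of all genes tested (-0.50).

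The tested members with the largest rise and the 2 largest falls in log2(FPKM + 1) are shown by the stretch before their start site. By ratio of mean FPKM, Usp20 (0.129) fell further than Usp35 (0.174) and Usp48 (0.303). The sequences are from RefSeq (GRCm38.p6), 5′ to 3′ on the gene's strand, up to 250 bases before the start and kept to bases outside any annotated exon. Capitals mark the GC box, GGGCGG or CCGCCC on the other strand, a motif bound by factors of the Sp family. The Usp12 stretch is chr5:146795007-146795206 (minus strand, 200 bases), just before the gene's deposited span of 146734809 to 146795006 on chromosome 5. The Usp35 stretch is chr7:97332110-97332326 (minus strand, 217 bases), before a deposited span of 97309380 to 97332020 on chromosome 7. The Usp48 stretch is chr4:137593922-137594139 (plus strand, 218 bases) and lies inside the deposited span of 137593755 to 137658537 on chromosome 4.
Usp12: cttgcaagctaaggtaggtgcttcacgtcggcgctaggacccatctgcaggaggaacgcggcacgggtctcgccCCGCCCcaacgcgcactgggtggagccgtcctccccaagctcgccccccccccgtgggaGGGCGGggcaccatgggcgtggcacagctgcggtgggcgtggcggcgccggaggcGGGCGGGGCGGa
Usp35: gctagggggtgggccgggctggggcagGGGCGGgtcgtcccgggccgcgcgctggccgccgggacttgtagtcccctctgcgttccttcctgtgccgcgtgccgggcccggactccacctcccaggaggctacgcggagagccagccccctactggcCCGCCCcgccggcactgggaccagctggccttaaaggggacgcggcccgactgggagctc
Usp48: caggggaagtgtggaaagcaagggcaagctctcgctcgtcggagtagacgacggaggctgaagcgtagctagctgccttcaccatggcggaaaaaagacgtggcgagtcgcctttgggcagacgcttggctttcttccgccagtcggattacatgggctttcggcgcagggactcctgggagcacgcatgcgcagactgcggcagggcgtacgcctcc
The GC box occurred 4 times in the Usp12 stretch, of which 2 overlap, 2 times in the Usp35 stretch and 0 times in the Usp48 stretch. Promoter entries matched 36 of the 47 members, 31 of them tested. In the whole 250 bases, on both strands, 23 of the 31 tested members held GGGCGG (74.2%), against 64.5% of 7886 tested genes with an entry. The AP-1 site TGANTCA occurred in 2 of the 31 (Usp31 and Usp38, 6.45%), against 5.48% of those genes, and the E-box CACGTG in 4 (12.9%), against 10.5%. The NF-kB site (GGGA, any base, TTTCC) and the interferon-response core (GAAA, any 2 bases, GAAA) occurred in 0 of the 31, against 0.52% and 3.61%. A match or its absence in this window describes letters and shows no binding.

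Usp12, which works with the WD-repeat proteins Wdr48 and Wdr20 and acts on histones and on receptors in transit, rose most among the tested members. Usp18, which was left out, rose more (5.01). Its levels of 84.8 and 79.2 FPKM in LPS libraries, against 15.4 and 15.6 FPKM in control libraries, made a ratio of mean FPKM of 5.29 and a change of 2.33 (SE 0.07; limma, adjusted p = 9.43e-07). Its LPS libraries held 6338 and 6282 fragments of the gene. Usp25, which in mouse cells acts on TRAF proteins below Toll-like and interleukin-17 receptors, rose by 1.25 (SE 0.10; limma, adjusted p = 3.97e-05), a ratio of 2.43. The LPS libraries of Usp25 differed more than those of Usp12, but both lay well above the control libraries.

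Usp42, a nuclear protease that acts on p53 in human cells, had 8.57 and 7.66 FPKM in LPS libraries, against 2.99 and 2.88 FPKM in control libraries. Its change was 1.21 (SE 0.08; limma, adjusted p = 1.69e-05). Usp15, which acts on the TGF-beta receptor complex and its SMAD proteins, had 7.27 and 6.88 FPKM in LPS libraries, against 4.66 and 4.75 FPKM in control libraries, a change of 0.50 (SE 0.06; adjusted p = 0.000402). Usp31 had 3.00 and 2.75 FPKM in LPS libraries, against 2.0 and 1.56 FPKM in control libraries, a change of 0.48 (SE 0.10; adjusted p = 0.00416). These 5 members rose whichever library was left out.

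The other 3 members that rose had smaller changes in log2(FPKM + 1). Usp27x, a relative of Usp22 that can join the same histone-deubiquitinating module, had 1.10 and 1.46 FPKM in LPS libraries, against 0.675 and 0.850 FPKM in control libraries. It reached the level for testing through LPS-treated libraries alone, so its direction is partly set by that choice. Usp47, which acts on DNA polymerase beta in base excision repair, had 10.9 and 9.62 FPKM in LPS libraries, against 7.91 and 8.02 FPKM in control libraries. Usp7 had 22.5 and 20.3 FPKM in LPS libraries, against 18.5 and 18.4 FPKM in control libraries. Their changes were 0.37, 0.33 and 0.20, and each call was lost when a library was left out: Usp27x, Usp47 and Usp7 without control B, which leaves 5 members called higher in place of 8, Usp7 also without control C, Usp47 and Usp7 without LPS B, and Usp27x without LPS C.

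**Figure D3:**
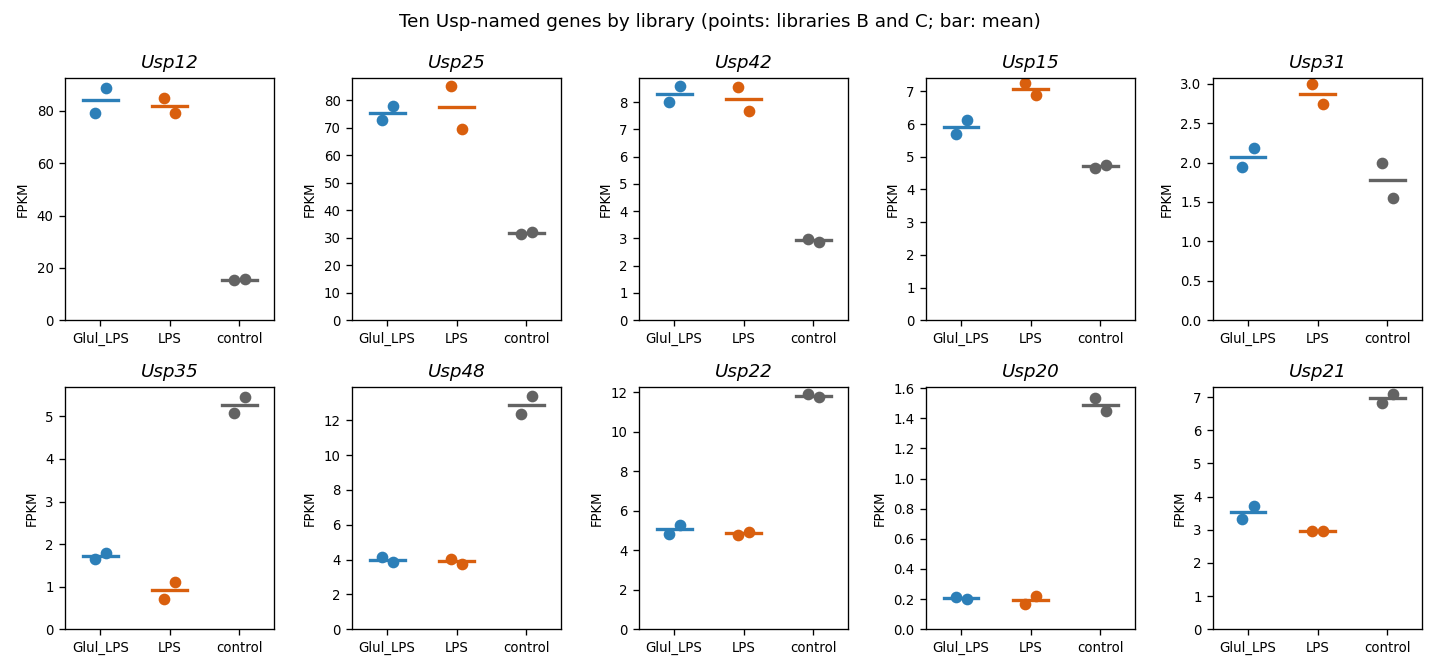
FPKM of 10 members in each library (points) with the group mean (bar), Glul_LPS left, LPS middle and control right; each axis starts at 0. The upper row holds the 5 members with the largest rise after LPS and the lower row the 5 with the largest fall. Because the panels were picked by that change, LPS points apart from the control points follow from the choice. The LPS and control libraries did not overlap for 39 of 39 tested members, against 92.5% of all genes tested.

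Usp35, a protease found at mitochondria and elsewhere in the cytoplasm in human cells, fell most in log2(FPKM + 1) among the tested members. It had 0.716 and 1.12 FPKM in LPS libraries (61 and 101 fragments), against 5.07 and 5.44 FPKM in control libraries, a ratio of 0.174 and a change of -1.71 (SE 0.11; limma, adjusted p = 2.17e-05). Usp48, a nuclear protease that acts on histone H2A at the site used by BRCA1 in human cells, had 4.04 and 3.76 FPKM in LPS libraries, against 12.4 and 13.4 FPKM in control libraries, a change of -1.50 (SE 0.07; adjusted p = 5.99e-06). Neither gene shares exon bases with another annotated gene.

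Usp22, the protease of the SAGA coactivator that takes ubiquitin off histone H2B, had 4.79 and 4.94 FPKM in LPS libraries, against 11.9 and 11.8 FPKM in control libraries, a change of -1.13 (SE 0.06; limma, adjusted p = 1.12e-05). Usp20, which returns beta-adrenergic receptors to the cell surface, had 0.165 and 0.22 FPKM in LPS libraries (24 and 34 fragments), against 1.54 and 1.45 FPKM in control libraries. The change of Usp20 was -1.06 (SE 0.09; adjusted p = 4.81e-05), which the added 1 FPKM makes small beside its ratio of 0.129. Usp20 reached the level for testing only with the control libraries, so the direction of its change is partly set by that choice. Usp21, which acts on histone H2A and on RIG-I, had 2.96 and 2.98 FPKM in LPS libraries, against 6.83 and 7.08 FPKM in control libraries, a change of -1.003 (SE 0.07; adjusted p = 2.74e-05). All 5 also fell after centring, with changes of -1.20 for Usp35, -0.98 for Usp48, -0.61 for Usp22, -0.54 for Usp20 and -0.48 for Usp21.

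The next falls were those of Usp28 (-0.95), which acts on Myc and other targets of the ligase Fbw7, Usp36 (-0.94), a nucleolar protease, Usp30 (-0.86), the protease of the outer mitochondrial membrane that holds back mitophagy, Usp5 (-0.78) and Usp1 (-0.73), which acts on FANCD2 and PCNA together with Wdr48. The direction of Usp36, which reached the level for testing only with the control libraries, is partly set by that choice. Usp28 had 1.01 and 0.953 FPKM in LPS libraries, against 2.71 and 2.94 FPKM in control libraries. Usp30 had 1.31 and 1.54 FPKM in LPS libraries, against 3.41 and 3.37 FPKM in control libraries. Of these 5, Usp1 was not called after centring (-0.21), and 21.4% of its 50-base stretches also occur in other annotated genes, so fragments could be placed on either. Usp30 shares 8.08% of its exon bases with genes on the opposite strand, and the strand setting of the counting is not given in the sources used here.

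By role, where a member can stand in more than 1 list, the members known from innate immune signalling come first. In these lists the directions of Usp27x, Usp11, Usp20, Usp36, Usp37 and Usp46 are partly set by the level needed for testing, as given above. The lists were drawn up with earlier results of these data known, so their counts beside those of all genes are description only. Of 9 such members, 8 were tested, and 4 rose (Usp25, Usp15, Usp27x and Usp7) and 4 fell (Usp3, Usp4, Usp21 and Usp38), with a median change of -0.03 beside -0.50 over all genes tested, of which 17.1% rose and 68% fell. After centring 5 of the 8 were higher and 1, Usp21, was lower, where 34.6% and 32.2% of all genes were. Usp4, which acts on TRAF6 and TAK1, had 9.95 and 10.2 FPKM in LPS libraries, against 15.5 and 15.2 FPKM in control libraries. Usp38 shares 20.5% of its exon bases with a gene on the opposite strand.

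Of 11 members found that act on histones or belong to chromatin complexes, 9 were tested, and 3 rose (Usp12, Usp7 and Usp27x) and 6 fell (Usp22, Usp21, Usp36, Usp46, Usp16 and Usp3), with a median of -0.27 (17.1% of all genes tested rose and 68% fell). After centring 5 rose and 3 fell, with a median of 0.25 (34.6% and 32.2% of all genes), so the balance turned with the scale. Within the SAGA-type module the 2 tested proteases were called in opposite directions on both scales, Usp22 down and Usp27x up. Usp27x reached the level for testing through LPS-treated libraries alone, which favours a rise, so its direction says little about the module. Usp12 and Usp46 are close relatives that bind the same WD-repeat partners, and Usp46 had 0.467 and 0.462 FPKM in LPS libraries, against 1.10 and 1.11 FPKM in control libraries. The change of Usp46 was -0.52 as deposited and was not called after centring. The histone H2A proteases Usp16 and Usp3 were called lower as deposited (-0.27 and -0.26) and higher after centring (0.25 and 0.26).

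Of 7 members with roles in DNA repair and the cell cycle, 6 were tested, and Usp47 rose while Usp48, Usp28, Usp1, Usp11 and Usp37 fell, with a median of -0.73 (17.1% of all genes tested rose and 68% fell). After centring, Usp48 and Usp28 stayed lower (32.2% of all genes tested were) and Usp47 higher (34.6% were). All 7 members of the endosome, membrane and organelle list were tested, and 5 fell (Usp20, Usp30, Usp19, Usp8 and Usp33), 0 rose, and Usp9x and Usp32 did not pass, with a median of -0.64, where 68% of all genes tested fell. After centring 2 of these 7 were higher (Usp9x and Usp32) and 3 lower (Usp19, Usp20 and Usp30), with a median of -0.12. Over all genes tested 34.6% were higher and 32.2% lower on that scale, with a median of 0.02. Usp8, the most abundant member in control cells, had 27.7 and 26.9 FPKM in LPS libraries, against 43.7 and 42.5 FPKM in control libraries, a change of -0.64 that was not called after centring (-0.12). Usp19, which has a form anchored in the endoplasmic reticulum, had 15.6 and 16.2 FPKM in LPS libraries, against 26.7 and 25.9 FPKM in control libraries, and fell on both scales.

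Of the 3 members tied to the proteasome and to the recycling of ubiquitin, Usp5 and Usp14 were tested. Both fell as deposited, as did 68% of all genes tested. Usp5 had 15.2 and 16.1 FPKM in LPS libraries, against 27.9 and 27.1 FPKM in control libraries. Usp14, which sits on the proteasome, changed by -0.29 as deposited and by 0.23 after centring, and 26% of its exon bases lie opposite another gene. The 3 members tied to translation and RNA, Usp36, Usp39 and Usp10, fell as deposited, where 68% of all genes tested fell. After centring Usp36 was lower, Usp10, a partner of the stress-granule protein G3BP1, was higher and Usp39 was not called. On that scale 32.2% of all genes tested were lower and 34.6% higher.

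Of the 4 members that did not pass as deposited, Usp9x, which keeps Mcl1 and other proteins from degradation, had 15.6 and 14.4 FPKM in LPS libraries, against 17.0 and 16.8 FPKM in control libraries (-0.16; limma, adjusted p = 0.0521). Usp32, which acts on Rab7, had 5.90 and 5.06 FPKM in LPS libraries, against 7.01 and 6.11 FPKM in control libraries. Usp40 had 2.32 and 2.44 FPKM in LPS libraries, against 2.78 and 2.58 FPKM in control libraries. In each of these the LPS libraries lay just under the control libraries, by less on the log2 scale than the median gene. Usp6nl, the Rab regulator, had 3.19 and 3.00 FPKM in LPS libraries, against 3.19 and 3.41 FPKM in control libraries, with a change of -0.07.

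Of the 5 members whose direction turned with the scale, Usp3 had 7.17 and 6.23 FPKM in LPS libraries, against 8.03 and 8.37 FPKM in control libraries. Usp14 had 7.35 and 7.78 FPKM in LPS libraries, against 9.20 and 9.77 FPKM in control libraries. Usp34, a large protease that acts on axin, had 3.87 and 3.38 FPKM in LPS libraries, against 4.6 and 4.73 FPKM in control libraries. These levels were lower after LPS, but less so than that of the median gene, and 11.6% of the exon bases of Usp34 lie opposite another gene. Usp16 had 3.04 and 3.54 FPKM in LPS libraries, against 4.19 and 4.14 FPKM in control libraries. Usp10 had 1.32 and 1.22 FPKM in LPS libraries, against 1.75 and 1.82 FPKM in control libraries.

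The 12 members that fell as deposited and were not called after centring changed by -0.73 (Usp1 and Usp11) to -0.34 (Usp38) in log2(FPKM + 1). The median gene changed by -0.50 on that scale. Usp1 had 5.61 and 5.76 FPKM in LPS libraries, against 10.0 and 10.2 FPKM in control libraries. Usp39 had 7.04 and 6.96 FPKM in LPS libraries, against 11.6 and 12.1 FPKM in control libraries. Usp45, which acts on the repair nuclease subunit ERCC1, had 3.24 and 2.93 FPKM in LPS libraries, against 5.68 and 5.15 FPKM in control libraries. Their LPS to control ratios of mean FPKM were 0.562, 0.590 and 0.570. Usp33, a relative of Usp20, had 1.69 and 1.62 FPKM in LPS libraries, against 3.05 and 2.89 FPKM in control libraries, and 24.4% of its exon bases lie opposite other genes. Usp11, which acts on BRCA2, had 0.827 and 0.853 FPKM in LPS libraries, against 1.91 and 2.21 FPKM in control libraries. Usp24 had 5.16 and 4.65 FPKM in LPS libraries, against 6.66 and 6.42 FPKM in control libraries. The ratio of Usp11 was 0.408, that of Usp46 0.421, that of Usp54 0.452 and that of Usp24 0.750. Each of these was called lower as deposited and not after centring. Of them, Usp11, Usp46 and Usp54 reached the level for testing only with the control libraries. For members near or below 1 FPKM, the added 1 FPKM makes the log2 change small beside the ratio, which also bears on the centred call.

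Among the 8 members below the level for testing, Usp2, known for its link to circadian and metabolic control, had the lowest LPS to control ratio of Usp2, Usp49 and Usp53. It had 3 and 2 fragments in the libraries labelled Glul_LPS and 2 and 1 fragments in LPS libraries, against 84 and 69 fragments in control libraries. Scaled by library totals, the LPS to control ratio of Usp2 was 0.0213 (exact 95% interval 0.00434 to 0.0634, which covers counting error only). Usp49, a histone H2B protease, had 45 fragments in the LPS libraries together, against 163 in the control libraries, a ratio of 0.300 (0.210 to 0.419), but 52.3% of its exon bases belong also to other annotated genes. Usp53 had 221 fragments in the libraries labelled Glul_LPS together and 142 in the LPS libraries, against 304 in the control libraries, and its 0.671 FPKM in Glul_LPS C stood apart from 0.416 FPKM in Glul_LPS B. Usp43 had 4 and 1 fragments in LPS libraries, against 0 in each control library, Usp9y, Usp13 and Usp50 had at most 0.0865 FPKM, and Usp44, a spindle checkpoint protease, had 0 fragments in all 6 libraries, which allows up to 0.0398 to 0.0475 FPKM (3 fragments a library).

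The summed level depends on leaving out Usp18, an interferon-induced member of the family, which had 94.2 and 103 FPKM in Glul_LPS libraries and 105 and 96.7 FPKM in LPS libraries, against 2.21 and 2.13 FPKM in control libraries. With Usp18 the sum was 456 and 486 FPKM in Glul_LPS libraries and 494 and 456 FPKM in LPS libraries, against 355 FPKM in each control library. Without it the 47 members summed to 389 and 359 FPKM in LPS libraries, against 353 FPKM in each control library. Usp12 and Usp25 together made up 43.7% and 41.4% of that sum in LPS libraries, against 13.3% and 13.5% in control libraries. Without them the sum was 219 and 211 FPKM in LPS libraries, against 306 and 305 FPKM in control libraries. The number of members with at least 1 FPKM was 33 and 32 in LPS libraries, against 38 in each control library, and the median tested gene had 4.43 and 4.50 FPKM in LPS libraries, against 6.83 FPKM in control libraries.

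**Figure D4:**
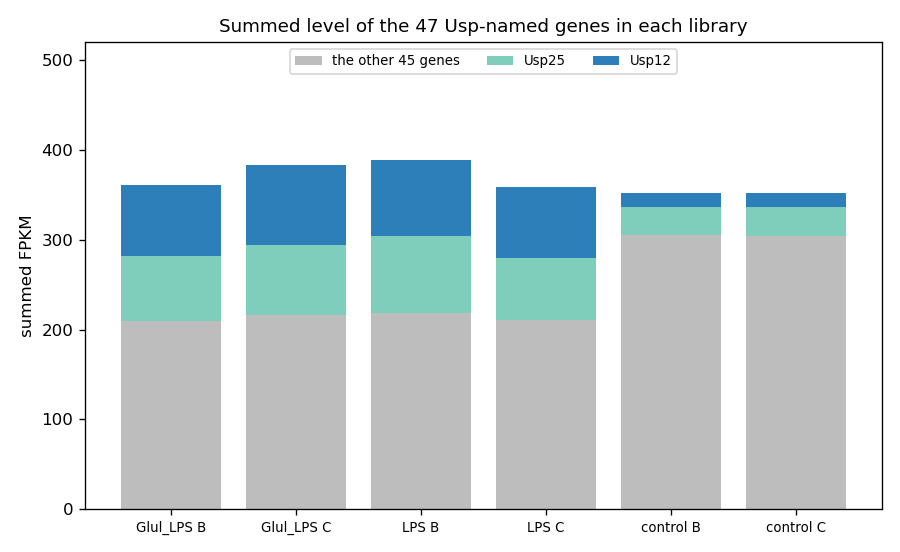
Summed FPKM of the 47 members in each library, Usp18 left out, split into Usp12 (blue), Usp25 (green) and the other members (grey). The totals lie between 353 and 389 FPKM, and the grey part is 211 and 219 FPKM in the LPS libraries, against 305 and 306 FPKM in the control libraries.

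The other deubiquitinase families were counted in the same way. Of 45 symbols listed, 40 were found and 37 tested, and 6 rose and 26 fell, with a median of -0.45, shares near the 17.1% and 68% of all genes tested (after centring 12 rose and 7 fell, beside 34.6% and 32.2%). Tnfaip3, the A20 protein that ends NF-kB signalling, had 219 FPKM in each LPS library, against 20.9 and 19.2 FPKM in control libraries. Its change of 3.38 was larger than that of any tested member of the Usp list. Usp18, which that list leaves out, changed by more, 5.01. Zufsp, a protease for long chains, and Vcpip1, which works with the p97 ATPase, changed by 2.70 and 1.33, and Otud1 by 0.77. Mindy2, Mindy1, Josd1 and Otud3 had the largest falls, with changes of -1.74, -1.51, -1.46 and -1.11. The binding partners had 1 riser, Wdr48 (0.20), and 7 that fell among 11 tested as deposited, against 17.1% and 68% of all genes, and after centring 7 rose and 1 fell (34.6% and 32.2% of all genes). Wdr20, the other partner of Usp12, had 2.40 and 2.32 FPKM in LPS libraries, against 4.75 and 4.45 FPKM in control libraries. Among the 6 ubiquitin and E1 genes, 1 rose as deposited (Uba1, the main ubiquitin-activating enzyme, by 0.20) and 4 fell, against 17.1% and 68% of all genes. After centring 4 of these rose and 0 fell, against 34.6% and 32.2% of all genes.

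For the effect of Glul under LPS, the libraries labelled Glul_LPS were set against the LPS libraries. No member passed the test: 0 of 39 had an adjusted p under 0.05 with limma, against 1.1% of all genes tested (121 genes, 0.547% higher and 0.556% lower), and the smallest was 0.0965. At an unadjusted p under 0.05 there were 5 (17.5% of all genes tested), Usp35 and Usp21 higher and Usp15, Usp31 and Usp47 lower. Limma voom on the recovered fragments called 3, Usp35 higher (2.48% of all genes tested) and Usp15 and Usp31 lower (3.19%), where it called 5.67% of all genes. The groups did not overlap for 16 of the 39 members, against 47% of all genes tested, and the median change was 0.02 over the members and 0.02 over all genes.

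Usp35 had 1.66 and 1.79 FPKM in the libraries labelled Glul_LPS and 0.716 and 1.12 FPKM in the LPS libraries, against 5.07 and 5.44 FPKM in control libraries. The Glul_LPS level of Usp35 thus lay between those of the LPS and the control libraries without overlap. Both contrasts use the same LPS libraries, so error in their level alone could give such an order. The difference was 0.51 (SE 0.11; limma, adjusted p = 0.0965), and 0.91 on the scale of voom (adjusted p = 0.012), which was the only alternative that called it. Leaving out LPS B or LPS C moved the limma difference no further than 0.36 to 0.66, with a fit that takes the spread of a lone library from the other groups.

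Usp15 had 5.70 and 6.12 FPKM in the libraries labelled Glul_LPS, against 7.27 and 6.88 FPKM in the LPS libraries. Its difference was -0.22 (limma, adjusted p = 0.166) and -0.28 with voom (adjusted p = 0.0176). Usp31 had 1.94 and 2.19 FPKM in the libraries labelled Glul_LPS, against 3.00 and 2.75 FPKM in the LPS libraries, a difference of -0.34 (limma, adjusted p = 0.181) and -0.50 with voom (adjusted p = 0.017). Both are members that rose after LPS, but the 2 contrasts share the LPS libraries with opposite signs. Error in the LPS level alone would move the 2 changes in opposite directions. Usp21 and Usp47 differed by 0.19 and -0.21 (limma, adjusted p = 0.249 and 0.274) and were not called by voom.

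Of the 5 members with the largest rise in log2(FPKM + 1) after LPS, Usp15 and Usp31 are given above. Usp12 differed by 0.03 (95% interval -0.13 to 0.20), Usp25 by -0.03 (-0.27 to 0.20) and Usp42 by 0.03 (-0.15 to 0.21). Usp12 and Usp25 made up 42.0% and 43.5% of the summed level in the libraries labelled Glul_LPS, against 43.7% and 41.4% in the LPS libraries. For 37 of the 39 members the 95% interval of the difference lay within 0.5 on either side of 0, and Usp35 and Usp31 were the exceptions. For members near or below 1 FPKM, the added 1 FPKM itself keeps such a difference small, so a narrow interval says little about their ratio. The Glul_LPS to LPS fragment ratio of Usp20, scaled by library totals, was 1.07 (exact 95% interval 0.734 to 1.56, counting error only). For the more abundant members the interval was narrow, although a difference below that size cannot be set aside with 2 libraries a group.

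**Figure D5:**
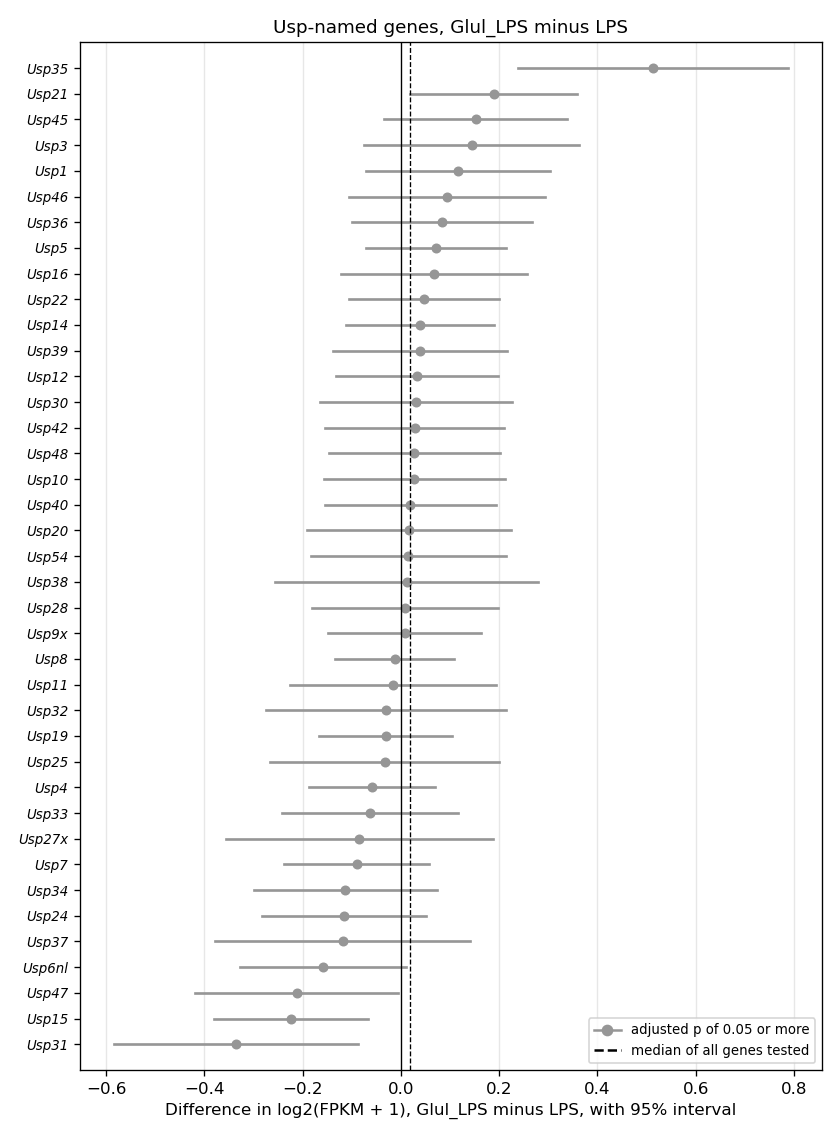
Difference in log2(FPKM + 1), Glul_LPS minus LPS, of the 39 tested members with 95% intervals from limma. Usp35 (0.51) and Usp31 (-0.34) lie at the ends, the grey colour marks an adjusted p of 0.05 or more, which holds for every member, and the dashed line is the median of all genes tested (0.02).

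The dendritic cell marker Itgax had 21.9 and 17.0 FPKM in the libraries labelled Glul_LPS and 37.5 and 34.7 FPKM in the LPS libraries, against 42.3 and 37.9 FPKM in control libraries. Xcr1, another marker of that list, had 0.910 and 1.05 FPKM in the libraries labelled Glul_LPS and 1.09 and 1.3 FPKM in the LPS libraries, against 0.120 and 0.117 FPKM in control libraries. The summed level of the list was 22.8 and 18.1 FPKM in the libraries labelled Glul_LPS and 38.7 and 36.1 FPKM in the LPS libraries, against 42.5 and 38.0 FPKM in control libraries. Flt3 and Zbtb46 were near 0 in all libraries, and the part of cells with these markers in the differences was not tested. Among the other deubiquitinases 1 of 37 tested passed, Tnfaip3, which had 159 and 158 FPKM in the libraries labelled Glul_LPS, against 219 FPKM in each LPS library, a difference of -0.46 (limma, adjusted p = 0.0243). The 11 tested partners and the 6 ubiquitin and E1 genes gave 0 calls. With 1.1% of all genes tested called, counts this low are near the share over all genes.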

How the data were processed

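The authors deposited 1 table of FPKM values per gene. Per the submitters' processing notes the build was GRCm38, and the tools listed were HISAT2 2.1.0, HTSeq 0.6.0, CASAVA and DESeq2. How these were combined, and with which annotation and strandedness, is not given in the sources used here. The table's 6 remaining per-sample columns matched no listed sample and were not used. FPKM times exon length (GENCODE M21) gave whole fragments, within 0.01, in all libraries for 22655 genes, 44 of the 47 members among them, and the other 3 were rounded.

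Values were analysed as log2(FPKM + 1), which understates changes of genes near or below 1 FPKM. The 10962 genes that reached 1 FPKM in 2 or more of the 6 libraries entered 1 limma fit of all 3 groups (limma 3.58.1, R 4.3.3, mean-variance trend, two-sided), with Benjamini-Hochberg adjustment over all of them and a threshold of 0.05. The contrasts were LPS minus control and Glul_LPS minus LPS, which share the LPS libraries. The fit was tested on simulated fragments in which only a small set of genes was changed. After LPS 85.2% of all genes tested were called, so that simulation does not cover the setting of the LPS calls. Intervals cover 95%, and those of fragment ratios are exact and conditional on the sum.

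The members, the role lists and the markers were chosen with earlier results of these data known. The genes named are up to 10 called members per direction after LPS, ranked by size of change, the 5 most abundant, those below the filter, members of the role lists, and up to 4 other deubiquitinases per direction. Members with an unadjusted p under 0.05 for Glul_LPS with LPS were named after their values were seen. Alternatives were 2 pseudocounts, 2 filters, TPM, quantile normalization, median centring, only the compared groups, a replicate block, no trend, voom on fragments, and leaving out each library.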

Additional observations from a re-analysis of the deposited data

How the results depend on the processing

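For LPS with control, the scale decided most of what changed. Against 8 members called higher, 27 called lower and a median of -0.52, quantile normalization gave 14, 14 and 0.055, and median centring gave 17, 10 and 0.00 (0.000585). A filter at a mean of 5 FPKM tested fewer genes and gave 13 called lower and a median of -0.32, and no filter a median of -0.35. Signs turned under quantile normalization for Usp6nl (0.52), Usp40 (0.46), Usp16 (0.30), Usp32 (0.29), Usp34 (0.27), Usp10 (0.25), Usp3 (0.21), Usp38 (0.18), Usp24 (0.16), Usp14 (0.14), Usp9x (0.073), Usp46 (0.055), Usp54 (0.039) and Usp33 (0.018). They turned under centring for Usp6nl (0.45), Usp40 (0.40), Usp9x (0.36), Usp32 (0.30), Usp3 (0.26), Usp16 (0.25), Usp14 (0.23), Usp34 (0.22), Usp10 (0.22), Usp38 (0.18), Usp24 (0.16) and Usp54 (0.00, or 0.000585).

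Leaving out each library in turn gave 5 to 8 members called higher, 23 to 28 called lower and medians of -0.53 to -0.46. Among the falls, Usp3, Usp16, Usp34 and Usp38 each lost their call without at least 1 library. In these fits the lone library of a group was assumed to vary like the other groups.

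For Glul_LPS with LPS, voom called 1 member higher and 2 lower where the other alternatives called 0 and 0, and leaving out a library gave medians of -0.01 to 0.02. Over all genes tested, 121 calls became 9 without a filter, 264 at a mean of 5 FPKM, 59 with only the compared groups, 42 without the trend, 621 with voom and 1 to 57 when a library was left out. The LPS calls over all genes were 5055 at a mean of 5 FPKM, against 9338. The sign of Usp42 turned on centring (-0.00, or -0.00189). Without 1 library the difference of Usp12 lay between -0.048 and 0.11, that of Usp25 between -0.18 and 0.11 and that of Usp42 between -0.044 and 0.10.

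Libraries of the same letter did not deviate together (correlations of -0.0474, -0.0215 and -0.000429 across genes). With 1 library of each letter in a group, this cannot tell whether libraries of a letter share an animal, a culture or a batch. With the letter as a replicate block, 8 members were called higher and 26 lower after LPS, and 0 and 0 for Glul_LPS with LPS. The depth limits members below 1 FPKM, with 1 to 84 fragments a library for Usp2.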
